A study of Mus musculus with 16 samples.

Results

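The clustered protocadherin genes, *Pcdha*, *Pcdhb* and *Pcdhg*, were examined in the mouse vomeronasal organ (VNO), the sensory epithelium that detects pheromones. Genes were taken by symbol, as those of the alpha, beta and gamma clusters that occur in both the count and the RPKM tables (RPKM is the read number of a gene scaled to its length and to the size of the library), and 59 of 24340 genes met this rule. The alpha cluster gave 15 genes, including *Pcdhac1* and *Pcdhac2*, the beta cluster 22 and the gamma cluster 22, including *Pcdhgc3*, *Pcdhgc4* and *Pcdhgc5*. In the build of the alignment, GRCm38, 58 of the 59 had a GENCODE gene model, all on chromosome 18, and *Pcdha7-g* was not placed. Among the 58, the alpha genes span chr18:36930184-37187661, the beta genes chr18:37264938-37524479 and the gamma genes chr18:37661793-37841873.

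RNA was sequenced from 12-week-old mice of generation 88 of an experiment in which 4 High Runner (HR) lines (3, 6, 7 and 8) had been selected for the distance run on wheels and 4 Control lines (1, 2, 4 and 5) had been kept without selection, all from Hsd:ICR mice. Each line gave 1 male and 1 female library, each from the pooled VNOs of 3 mice, so the 16 libraries hold 4 lines per linetype and 2 libraries per line. Mice within a pool cannot be told apart, and an HR line differs from a Control line in its own breeding history as well as in selection. In bulk tissue, fewer cells of a type and less RNA per cell cannot be told apart either.

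Clustered protocadherins are cell adhesion proteins that carry extracellular cadherin repeats and bind their own kind on a neighbouring membrane. A neuron typically chooses a few alpha, beta and gamma promoters, mostly at random, and the mixture serves as an identity tag by which its branches recognise and avoid each other; olfactory sensory neurons use it when their axons sort into glomeruli. Each alpha or gamma gene joins its own variable exon to 3 constant exons shared by its cluster, whereas a beta gene is a single exon. The C-type genes *Pcdhac1*, *Pcdhac2*, *Pcdhgc3*, *Pcdhgc4* and *Pcdhgc5* are more often expressed by many cells of a type than chosen at random. Reads were 75 nt long. In the GENCODE transcripts, a median of 56.7% of the 75-nt stretches of an alpha gene and 44.0% of those of a gamma gene also occur in another member, against 1.23% for a beta gene, so the levels of single alpha and gamma genes depend on how reads on the shared exons were assigned. Stretches can also occur in genes that are not members, as do 66.4% of those of *Pcdhga10*, 37.1% of *Pcdhgc3* and 62.6% of the beta gene *Pcdhb12*.

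The libraries held 15998552 to 70875276 counted reads, with a median of 37366329, and the clustered protocadherins took 0.0576% to 0.0901% of them. The VNO label was borne out by *Omp*, the marker of mature olfactory and vomeronasal sensory neurons, at a mean RPKM of 1109. It was also borne out by *Trpc2*, the transduction channel of vomeronasal sensory neurons, at a mean RPKM of 329, although *Trpc2* was listed at 0 in the count tables. The counts and the RPKM disagreed in the same way for *Pcdha4*, *Pcdha6* and *Pcdha7*, which had 0 counts in all 16 libraries and RPKM of 0.448 to 3.37. *Pcdha7-g* had 0 to 12 counts. These 4 alpha genes did not pass the filter on low counts, and the other 55 members were tested. HR line 3 stood apart at many genes, as given below, and the main results that rest on it are also given without it.

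Within each cluster the transcripts were spread over many genes, apart from the alpha and beta clusters' leading member. *Pcdhb1* was the member with the highest level, with a mean RPKM of 82.7, above 96.2% of the 24350 genes with RPKM. It took 57.5% of the summed RPKM of the beta cluster on average, and 48.6% to 62.6% in single libraries. *Pcdhac2* followed with a mean RPKM of 42.3, 44.4% of the alpha cluster. On the chromosome these are neighbours: *Pcdhac2* is the last alpha gene and *Pcdhb1* the first beta gene, and both are known, with *Pcdhgc4* and *Pcdhgc5*, as the members whose promoters lack the conserved sequence element found in front of the rest. No member of the gamma cluster led in this way: *Pcdhgc3*, which binds Axin1 in Wnt signalling, had a mean RPKM of 11.1 and 14.9% of the cluster.

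The other C-type genes were at very different levels. *Pcdhac1* had a mean RPKM of 8.80. *Pcdhgc4*, required for the survival of many neurons, had a mean RPKM of 0.472, and *Pcdhgc5* one of 0.438. By this mean they were the lowest of the gamma cluster, with *Pcdhgb8* next at 0.658. The order of these genes depended on HR line 3, where *Pcdhgb8* had 2.82 (male) and 2.46 (female). In the other libraries *Pcdhgb8* had 0.283 to 0.502, *Pcdhgc4* 0.236 to 0.672 and *Pcdhgc5* 0.209 to 0.650. In the beta cluster, *Pcdhb17* (9.39), *Pcdhb9* (9.20) and *Pcdhb20* (5.29) came next in mean RPKM after *Pcdhb1*, and *Pcdhb5* (0.521), *Pcdhb2* (0.564) and *Pcdhb6* (0.771) were the lowest. In the alpha cluster, *Pcdha12* (8.59) and *Pcdha9* (6.05) followed the C-type pair, and *Pcdha8* (0.440), *Pcdha7-g* (1.20) and *Pcdha1* (1.24) were the lowest. In the gamma cluster *Pcdhgb7* (8.36), *Pcdhga11* (5.77) and *Pcdhgb2* (5.59) followed *Pcdhgc3*. The median member had a mean RPKM of 4.06 in the alpha, 2.14 in the beta and 3.02 in the gamma cluster.

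**Figure D1:**
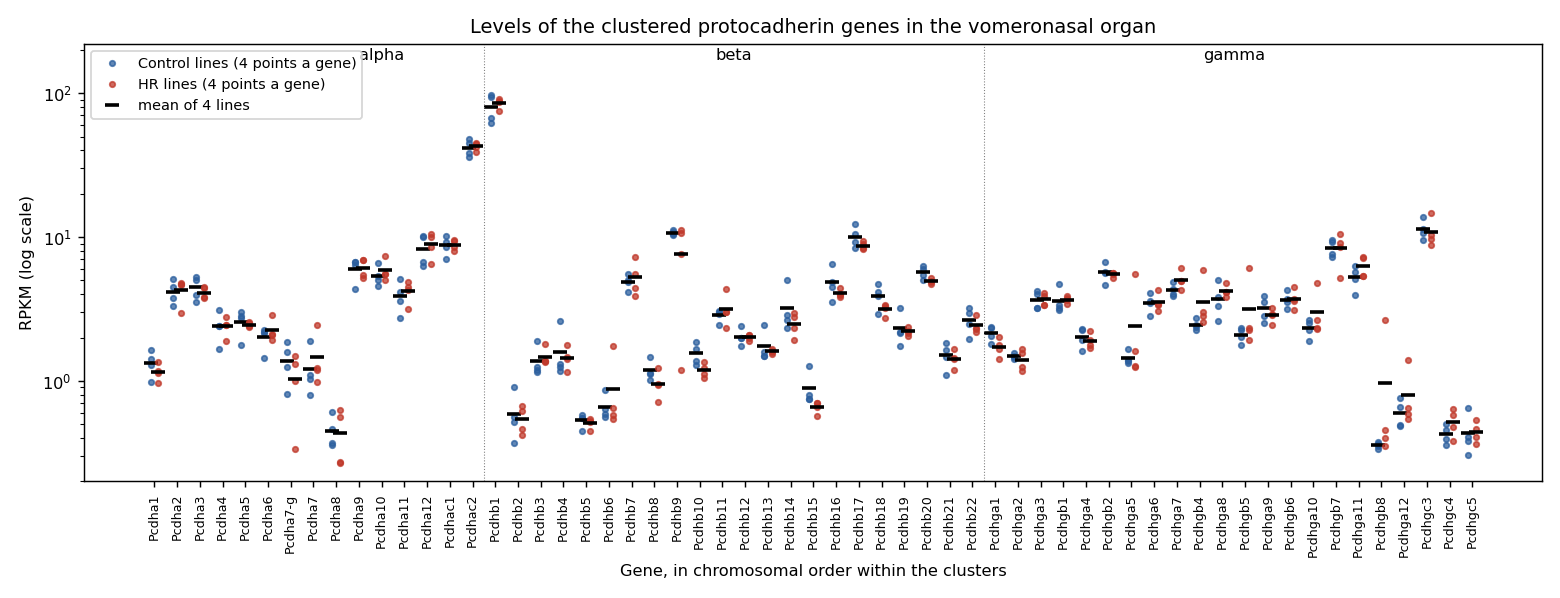
RPKM (log scale) of the 59 clustered protocadherin genes in the order of the clusters, with 1 point for the mean of the male and female library of each Control line (blue) and HR line (red) and a bar for the mean of 4 lines. *Pcdhac2* and *Pcdhb1*, side by side at the border of the alpha and beta clusters, stand above the rest, and single HR points far from the others are line 3.

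The summed level of each cluster overlapped between HR and Control lines. The alpha cluster summed to an RPKM of 96.2 ± 6.65 (SD, n = 4 lines) in HR and 94.1 ± 12.9 (SD, n = 4 lines) in Control lines. The beta cluster summed to 142 ± 9.38 in HR and 145 ± 25.8 in Control lines. For both clusters the linetype means differed by less than 1 SD of the lines and the ranges overlapped, with Control line 1 the highest (107 for alpha, 175 for beta). The gamma cluster summed to 77.6 ± 11.01 in HR and 72.0 ± 4.89 in Control lines. Its highest line was HR line 3 with 93.6, and the other HR lines, at 74.97, 68.7 and 73.1, lay within the 66.1 to 76.6 of the Control lines. On the log2 scale the HR sum over the Control sum was 0.03 for alpha, -0.03 for beta and 0.11 for gamma, and 0.00 for gamma without line 3.

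**Figure D2:**
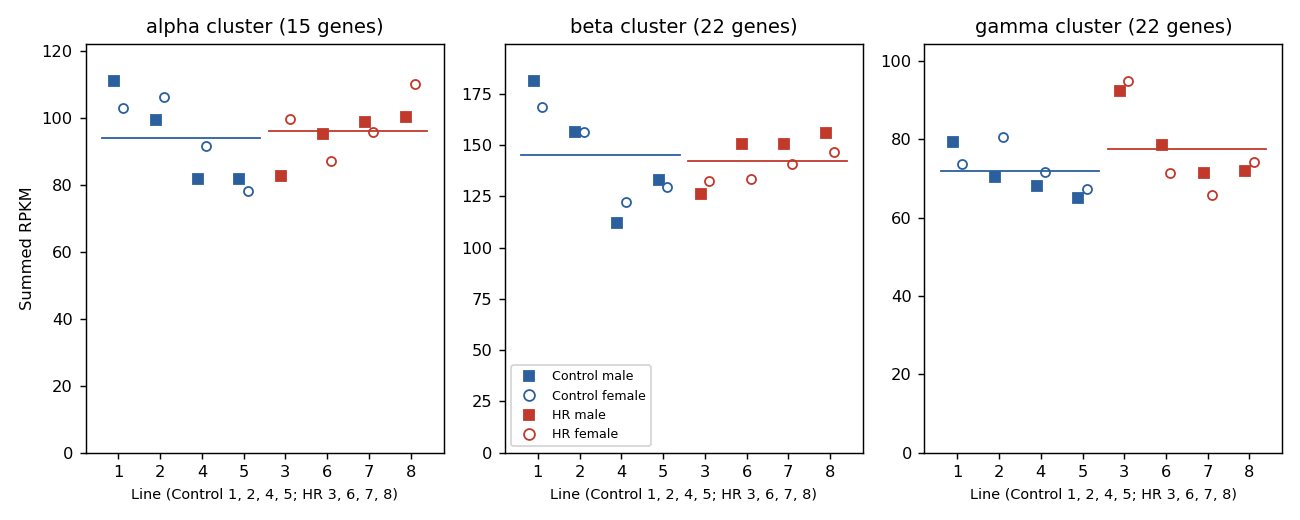
Summed RPKM of each cluster by line, with squares for male and open circles for female libraries and a horizontal line for the mean of 4 lines. In the gamma cluster both HR line 3 libraries, at 92.4 and 94.8, lie above the other 14, which reach 80.5.

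The comparison of HR with Control lines asked whether selection for wheel running had gone with a change of these genes. None of the 55 members tested had an adjusted *p* under 0.05 in the quasi-likelihood test of edgeR, which also held sex, where 0.0242% of 16507 genes did. DESeq2 called 0 members as well, where 0.182% of genes were called. At an unadjusted *p* under 0.05, 7 members (12.7%) stood against 3.3% of all genes, 3 higher in HR lines (*Pcdhgb8*, *Pcdhgb4* and *Pcdhgb5*; background 1.6%) and 4 lower (*Pcdhb10*, *Pcdhb15*, *Pcdhb18* and *Pcdhb20*; background 1.7%). The adjusted *p* of each of them was 0.9997. This fit took the male and female library of a line as separate samples, although they deviated together. With the 2 libraries of a line summed, 2 members had an unadjusted *p* under 0.05 (*Pcdhb10* and *Pcdhb20*; 3.64%, background 1.21%), and with line as a random replicate block in limma-voom, 4 did (*Pcdhb10*, *Pcdhb15*, *Pcdhb18* and *Pcdhga1*; 7.27%, background 1.59%). *Pcdhgb8*, *Pcdhgb4* and *Pcdhgb5* were in neither set.

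*Pcdhgb8* had the smallest unadjusted *p* of the members. Its CPM (counts scaled to library size with edgeR's TMM factors, not to gene length) were 0.700, 0.715, 0.711 and 0.698 in Control lines 1, 2, 4 and 5, and 5.68, 0.960, 0.725 and 0.767 in HR lines 3, 6, 7 and 8. All HR lines lay above all Control lines, which held for 0.473% of genes, but the distance came from line 3, and lines 7 and 8 lay just above the Control lines. The log2 fold change was 1.52 ± 0.52 (SE, unadjusted *p* = 0.00971 in edgeR, 0.0565 with line sums and 0.105 with the random block), and without line 3 it was 0.21 ± 0.16 (unadjusted *p* = 0.205). *Pcdhgb4* went from 0.57 to 0.16 and *Pcdhgb5* from 0.67 to 0.09 on the log2 scale when line 3 was left out, and the log2 fold change of *Pcdhga5* went from 0.80 to -0.10.

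The 4 beta genes kept estimates below 0 without line 3. *Pcdhb15* had 3.16, 1.87, 2.00 and 1.89 CPM in Control lines 1, 2, 4 and 5 and 1.78, 1.75, 1.42 and 1.68 CPM in HR lines 3, 6, 7 and 8. All HR lines were below all Control lines, which held for 0.327% of genes, and Control line 1 was the farthest from the rest. Its log2 fold change was -0.44 ± 0.16 (SE), -0.48 without line 3 and -0.22 without line 1 (unadjusted *p* = 0.0926 in edgeR). *Pcdhb10* had 3.58, 4.79, 4.26 and 3.27 CPM in the Control lines and 2.85, 2.64, 3.47 and 3.18 CPM in the HR lines, in the same order, so that HR line 7 overlapped the Control range. Its log2 fold change was -0.39 ± 0.13, and -0.36 without line 3. *Pcdhb18* had a log2 fold change of -0.31 ± 0.12, -0.24 without line 3 and -0.22 without line 1. For this gene Control line 4, at 13.5 CPM, lay among the HR lines, at 12.6 to 15.7 CPM. *Pcdhb20* had a log2 fold change of -0.20 ± 0.09, -0.20 without line 3 and -0.16 without line 1. Of the 22 beta genes, 17 had an estimate below 0, with a median log2 fold change of -0.13. Without line 3, 20 were below 0, with a median of -0.16, and without Control line 1, 11 were below 0, with a median of -0.0026. Leaving out any of the other 6 lines gave 16 to 18 below 0. The median was 0.01 for the 11 alpha genes tested and 0.07 for the 22 gamma genes, beside 0.00 for all genes tested. Without line 3 these medians were 0.06, 0.03 and 0.00.

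The members with the highest levels did not pass the test. *Pcdhb1* had a log2 fold change of 0.09 ± 0.12 (SE), *Pcdhac2* one of 0.02 ± 0.09 and *Pcdhgc3* one of 0.00 ± 0.15. *Pcdhgc3* had an estimate of -0.23 ± 0.10 without line 3 (unadjusted *p* = 0.0354 in edgeR, adjusted *p* = 0.531). Without line 3, 5 members had an unadjusted *p* under 0.05 (*Pcdhb10*, *Pcdhb15*, *Pcdhb20*, *Pcdhga1* and *Pcdhgc3*), or 9.09%, where 9.39% of genes did, and 0 passed at an adjusted *p* under 0.05 (background 0.0545%). Without line 1, 6 members had an unadjusted *p* under 0.05 (*Pcdhb3*, *Pcdhb10*, *Pcdhga7*, *Pcdhgb4*, *Pcdhga11* and *Pcdhgb8*), or 10.9%, where 4.43% of genes did.

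**Figure D3:**
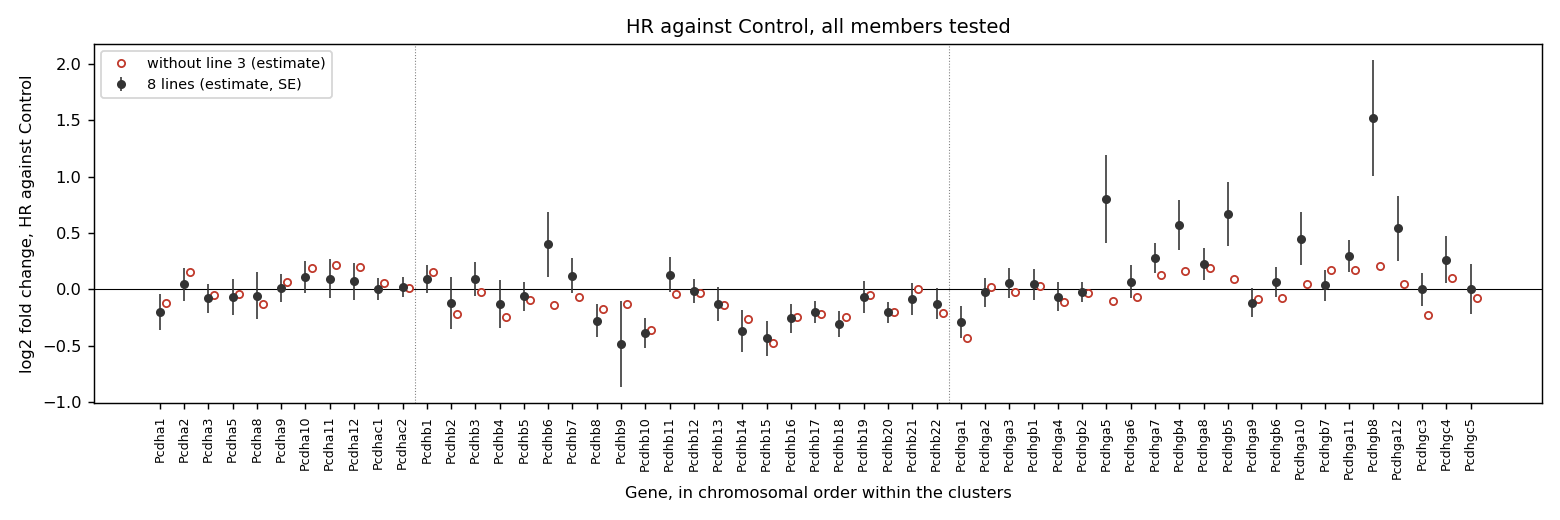
Log2 fold change of HR against Control lines for the 55 members tested, with filled points and SE bars for all 8 lines and open points for the fit without line 3. The estimates of *Pcdhgb8*, *Pcdhga5*, *Pcdhgb5* and *Pcdhgb4* move to between -0.10 and 0.21 without line 3, while 20 of the 22 beta genes are below 0 there. Without Control line 1, which is not drawn, 11 of the 22 are.

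Female and male libraries were compared next. No member passed at an adjusted *p* under 0.05 in edgeR (background 0.188%), and 0 had an unadjusted *p* under 0.05, where 8.08% of genes did; DESeq2 called 0. *Pcdhb12* had the smallest *p*, with a log2 difference of females from males of -0.22 (adjusted *p* = 0.622), followed by *Pcdhb20* (-0.17) and *Pcdha8* (0.38). With line as a replicate block, 0 members passed (background 0.506%) and 5 had an unadjusted *p* under 0.05 (*Pcdhb1*, *Pcdhb9*, *Pcdhb12*, *Pcdhb16* and *Pcdhga1*), or 9.09%, where 16.4% of genes did. The interaction of sex and linetype gave 0 members at an adjusted *p* under 0.05 and 0 at an unadjusted one in edgeR (background 0% and 0.46%), and the smallest *p* were those of *Pcdhb11*, *Pcdhb12* and *Pcdhb18*. Males and females were deposited in separate tables, so sex and table cannot be told apart.

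Lines of the same linetype did differ. In a fit with line and sex, which took the spread from the male and female library of a line, 26 of the 55 members (47.3%) differed among lines within linetypes at an adjusted *p* under 0.05, where 27.7% of 17181 genes did. Of these, 4 were alpha genes (*Pcdha2*, *Pcdha9*, *Pcdha11* and *Pcdha12*). A further 11 were beta genes (*Pcdhb1*, *Pcdhb3*, *Pcdhb4*, *Pcdhb6*, *Pcdhb7*, *Pcdhb9*, *Pcdhb14*, *Pcdhb16*, *Pcdhb18*, *Pcdhb19* and *Pcdhb21*). The last 11 were gamma genes (*Pcdhga5*, *Pcdhga8*, *Pcdhga10*, *Pcdhga11*, *Pcdhga12*, *Pcdhgb4*, *Pcdhgb5*, *Pcdhgb6*, *Pcdhgb7*, *Pcdhgb8* and *Pcdhgc3*). DESeq2 called 34 members, where 42.5% of genes were called. The smallest adjusted *p* were those of *Pcdhb9* (4.78e-05), *Pcdhga5* (0.000251) and *Pcdhgb8* (0.000265). Without line 3, 11 of the 55 members passed (20%), where 19.3% of genes did, so that the share of members was then near that of all genes. Without line 1, 16 passed (29.1%), where 24.4% of genes did.

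Each line was then set against the other 3 lines of its linetype, a comparison chosen after the values had been seen. Line 3 had the most calls of the 8 lines, with 14 members higher (25.5%, background 11.6%) and 5 lower (9.09%, background 7.65%) at an adjusted *p* under 0.05. Of the 14, 11 were gamma genes and 3 were beta genes (*Pcdhb6*, *Pcdhb7* and *Pcdhb11*). The 5 lower members were *Pcdha2*, *Pcdha12*, *Pcdhb9*, *Pcdhb14* and *Pcdhgb7*. The median log2 difference of line 3 from the other HR lines was 0.49 for the gamma, 0.03 for the beta and -0.24 for the alpha genes, and 0.01 for all genes.

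*Pcdhb9*, a beta gene of which 3.62% of the 75-nt stretches occur in another member, had the smallest *p* in line 3. Its CPM was 28.4, 31.0, 29.1 and 29.7 in Control lines 1, 2, 4 and 5, and 3.58, 20.9, 31.0 and 29.8 in HR lines 3, 6, 7 and 8. The male and female libraries of line 3 had 3.92 and 3.23 CPM, and no other library had less than 19.8 CPM. The log2 difference from the other HR lines was -2.90 ± 0.15 (SE, adjusted *p* = 1.26e-05). Reads with a mismatch to the reference genome had been dropped by the authors, and the part of this step in the low value of line 3 was not tested.

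The gamma genes that were higher in line 3 lay among others that were not. *Pcdhgb8* had 6.15 and 5.21 CPM in the male and female library of line 3, and 0.608 to 1.09 CPM in the other HR and Control libraries, a log2 difference from the other HR lines of 2.80 ± 0.19 (SE, adjusted *p* = 3.14e-05). *Pcdhga5* had 10.3 and 12.9 CPM in line 3 and no more than 3.38 CPM elsewhere, a difference of 2.17 ± 0.15. *Pcdhgb5* had 12.8 and 12.4 CPM in line 3 and no more than 5.05 CPM elsewhere, a difference of 1.58 ± 0.12. For these 3 genes the line 3 libraries and the other 14 did not overlap. *Pcdhga12* (1.41), *Pcdhgb4* (1.21), *Pcdhga10* (1.20), *Pcdhgc3* (0.75), *Pcdhga7* (0.53), *Pcdhga1* (0.51), *Pcdhgb6* (0.51) and *Pcdhga11* (0.46) were also higher on the log2 scale. *Pcdhgb7* was lower, with 11.1 and 11.8 CPM in line 3 and 12.5 to 19.6 CPM in the other libraries, a difference of -0.63 ± 0.12. In all, both line 3 libraries lay outside the range of the other 14 libraries in 10 gamma genes, 3 beta genes and 0 alpha genes. The share of all genes for which this held was not counted, so these counts have no background. In the beta cluster, *Pcdhb6* had 3.59 and 3.86 CPM in line 3 and 0.984 to 2.17 CPM elsewhere, a difference of 1.49 ± 0.19.

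The calls of HR lines 7 and 8 fell on genes of the same list, and line 3 was among the lines each was set against. *Pcdhb9* was higher and *Pcdhga5* and *Pcdhgb8* were lower in both, and *Pcdhgb5* and *Pcdhgc3* were also lower in line 8. The background was 1.84% higher and 1.29% lower in line 7 and 2.71% higher and 2.76% lower in line 8. With line 3 left out, none of these calls remained: line 7 had 1 member higher, *Pcdhb7* (background 1.42%), and 0 lower (background 0.943%), and line 8 had 0 higher (background 1.26%) and 0 lower (background 0.973%). HR line 6 had 0 calls among the members (background 1.48% higher and 1.3% lower).

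**Figure D4:**
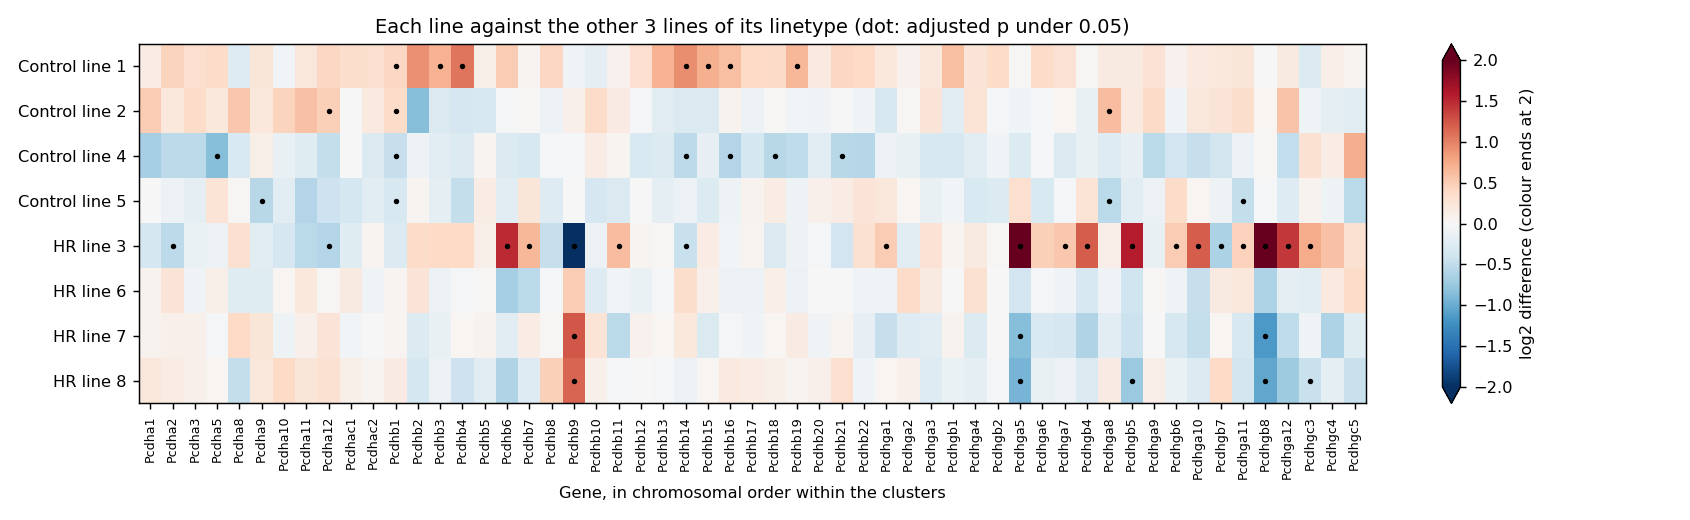
Log2 difference of each line from the other 3 lines of its linetype (colour, ending at 2) for the 55 members tested, with a dot at an adjusted *p* under 0.05. Line 3 has strong colours at scattered beta and gamma genes, from -2.90 at *Pcdhb9* to 2.80 at *Pcdhgb8*, and Control line 1 is warm along most of the beta cluster.

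Line 3 also differed in markers of other cells, although no gene of 10 lists of cell type markers had an adjusted *p* under 0.05 in HR against Control lines. The summed CPM of 5 endothelial markers, all of which were called in line 3, was 133 in line 3 and 50.3 to 73.7 in the other HR lines. That of the sensory neuron markers was 3050 in line 3 and 3519 to 4605 in the other HR lines, with *Trpc2* at 0 counts. That of the immune and blood markers was 77.7 in line 3 and 43.5 to 56.0 in the other HR lines, with *Hbb-bs* at 0 counts. Glandular markers summed to 103300 CPM in line 3, and to 5581 to 103140 CPM in the other HR lines. Cartilage and bone markers were also higher in line 3 (118.5 CPM, other HR lines 57.6 to 87.9). Lower there were the sums for supporting cells (635, others 746 to 1140), main olfactory neurons (219, others 255 to 287) and central neurons (321, others 370 to 407). In these lists the gene with the highest mean CPM in HR lines was called lower in line 3. These were *Cyp2a5* (log2 difference -1.19), *Ano2* (-0.50) and *Snap25* (-0.32). *Cnga2* (2.42) and *Gnal* (1.02) of the main olfactory and *Gad1* (2.68) of the central neurons were called higher. The median log2 difference of the 3 lists was 0.47, 0.57 and 0.40, so their genes did not go 1 way. For the sums of immature neurons and ensheathing glia, line 3 lay within the range of the other HR lines. Control line 5 had an endothelial sum of 146 and a sensory neuron sum of 3053, with 0.698 CPM of *Pcdhgb8* and 29.7 CPM of *Pcdhb9*. The part of these cells in the line 3 values was not tested. *Pcdhgc3* was at 32.1 CPM in HR line 3, 26.0 in Control line 4 and 23.0 in Control line 5, the 3 lines with the highest endothelial sums (133, 104 and 146), and at 17.1 to 21.2 CPM in the other 5 lines, whose sums were 50.3 to 73.9. This was not tested for *Pcdhgc3* either.

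Neighbouring genes were called in line 3 about as often as genes elsewhere. Of 39 genes tested that lie between the clusters or within 1 Mb of them, 8 were called in line 3 (20.5%), beside 19.3% of all genes, and *Slc25a2* and *Taf7*, which lie between the beta and gamma clusters, were not among them.

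Control line 1 had 7 members higher than the other Control lines (12.7%, background 2.67%) and 0 lower (background 1.54%), and all 7 were beta genes. Its male and female libraries were also the deepest of all, with 67406690 and 70875276 counted reads, beside 53348993 in the next. The part of depth in these calls was not tested. *Pcdhb4* had 8.85 and 8.77 CPM in the male and female library of line 1, and 3.59 to 4.63 CPM in the other Control libraries, a log2 difference of 1.08 ± 0.16 (SE, adjusted *p* = 0.00414). *Pcdhb14* had 14.5 and 16.8 CPM in line 1 and 7.21 to 9.82 CPM in the other Control libraries, a difference of 0.94 ± 0.10. *Pcdhb15* (0.72), *Pcdhb3* (0.70), *Pcdhb19* (0.66), *Pcdhb16* (0.60) and *Pcdhb1* (0.42) were the other calls, on the log2 scale. In 10 of the 22 beta genes both line 1 libraries lay outside the range of the other 14 libraries, against 1 gamma gene (*Pcdhgb1*) and 0 alpha genes. How often this held over all genes was not counted. The median log2 difference was 0.41 for the beta, 0.31 for the alpha and 0.19 for the gamma genes, beside -0.01 for all genes. *Pcdhb15*, named above for its lower level in HR lines, was thus also a gene of which Control line 1 had the highest level.

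The other Control lines had fewer calls. Line 4 had 6 members lower (*Pcdha5*, *Pcdhb1*, *Pcdhb14*, *Pcdhb16*, *Pcdhb18* and *Pcdhb21*; 10.9%, background 3.21%) and 0 higher (background 3.6%), with *Pcdha5* the largest at -0.85 ± 0.19 (SE) on the log2 scale. Line 5 had 4 lower (*Pcdha9*, *Pcdhb1*, *Pcdhga8* and *Pcdhga11*; 7.27%, background 4.45%) and 0 higher (background 5.97%), and line 2 had 3 higher (*Pcdha12*, *Pcdhb1* and *Pcdhga8*; 5.45%, background 4.47%) and 0 lower (background 2.58%). *Pcdhb1* was called in all 4 Control lines. Its CPM was 222, 215, 140 and 151 in lines 1, 2, 4 and 5, so that lines 1 and 2 were high and lines 4 and 5 low, and 168, 200, 198 and 210 in HR lines 3, 6, 7 and 8. The summed CPM of the sensory neuron markers was 4055, 4376, 3526 and 3053 in the same Control lines and 3050, 3519, 4008 and 4605 in the same HR lines, and its part in the *Pcdhb1* values was not tested.

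**Figure D5:**
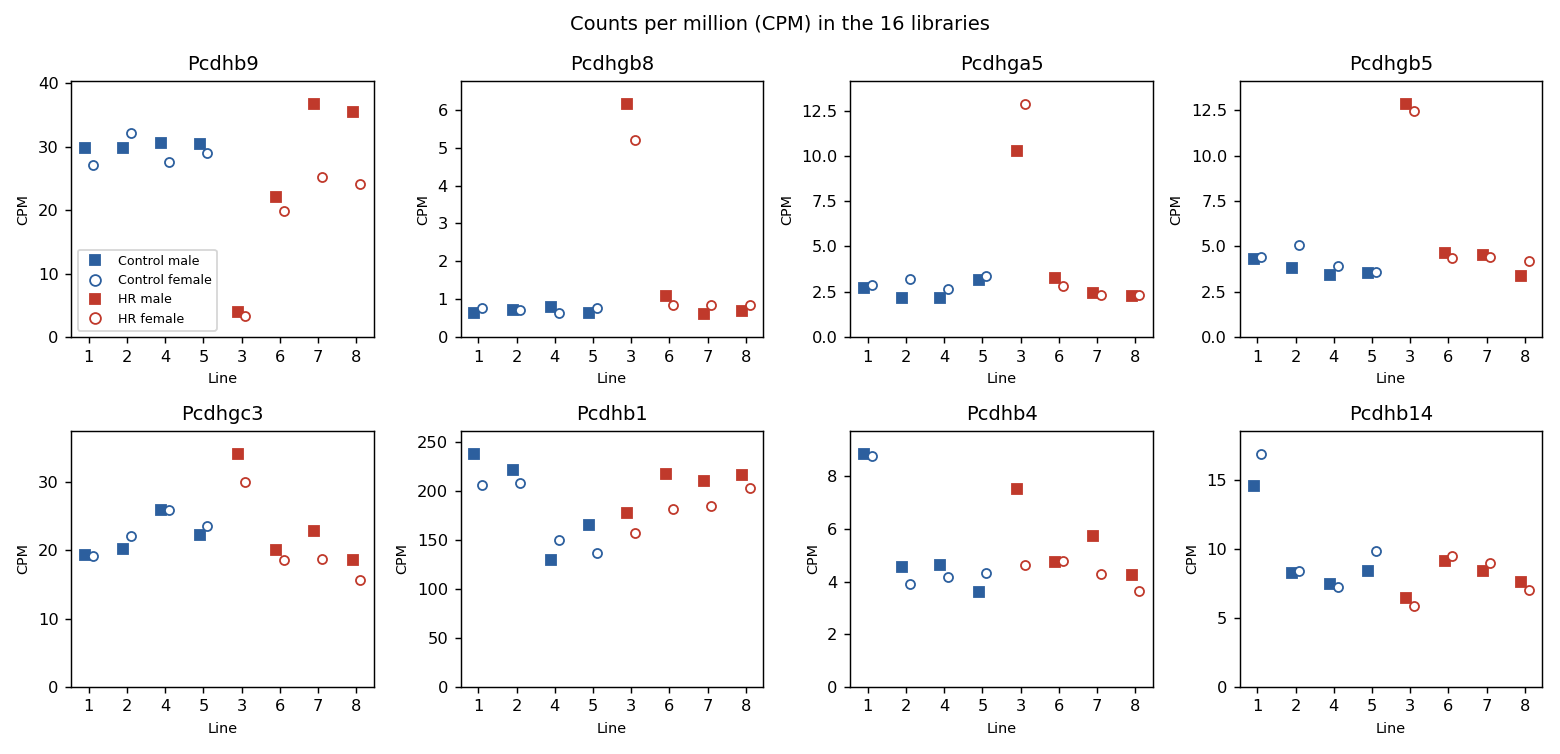
CPM of 8 members in the 16 libraries by line, with squares for male and open circles for female libraries, Control in blue and HR in red. *Pcdhb9* drops to 3.92 and 3.23 in HR line 3, *Pcdhgb8*, *Pcdhga5* and *Pcdhgb5* rise there, and *Pcdhb4* and *Pcdhb14* are highest in Control line 1.

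Genes that act with the clustered protocadherins were taken from 3 lists. Of 25 genes tested for promoter choice and silencing, which include *Ctcf* and the cohesin subunit *Rad21*, which loop the chosen promoter to its enhancer, and *Smchd1*, which silences the clusters, 0 had an adjusted *p* under 0.05 or an unadjusted one in HR against Control lines in edgeR. *Ctcf* had a log2 fold change of -0.01 ± 0.04 (SE) and *Smchd1* one of -0.02 ± 0.05, and the smallest *p* were those of *Uhrf1*, *Dnmt1* and *Rest*, with *Uhrf1* at -0.33 ± 0.21. In line 3, 1 of the 25 was called, *Rad21*, at -0.22, beside 19.3% of all genes. Of 24 genes for the processing of the proteins and their partners inside the cell, 0 were called, and *Aph1a*, a gamma-secretase subunit, *Adam10*, the protease that sheds the extracellular part, and *Prkca* had the smallest *p*. *Aph1a* had a log2 fold change of 0.11 ± 0.06, and *Prkca* was called in line 3 at -0.38. Of 18 non-clustered protocadherins and related cadherins, 0 were called in HR against Control lines, with *Pcdh10*, *Fat2* and *Pcdh18* first by *p* and *Pcdh10* at -0.46 ± 0.23. Among lines within linetypes, 4 of the 25 (*Rad21*, *Pds5a*, *Lhx2* and *Uhrf1*), 3 of the 24 (*Psen2*, *Abi1* and *Prkca*) and 9 of the 18 were called, beside 27.7% of all genes. In line 3, 6 of the 18 were called, beside 19.3% of all genes, with log2 differences of 1.32 for *Fat2*, 1.28 for *Pcdh12*, 1.16 for *Dchs1*, 1.07 for *Pcdh18*, 1.04 for *Fat4* and -2.09 for *Pcdh20*.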

How the data were processed

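Total RNA of pooled VNOs was made into directional libraries. Alignment was done by the authors with STAR 2.6.1d on GRCm38, accepting no mismatch and dropping reads with more than 1 location. Both steps remove reads where a line differs from the reference or where genes are alike. The deposited count tables hold whole reads per gene, and the counting tool and annotation are not given in the sources used here. The deposited RPKM tables hold values the authors computed with Cufflinks, each table for the libraries of 1 sex. The submitters' processing notes name STAR and Cufflinks. Every column of values was used.

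Members and gene lists were chosen with earlier results of these data known. Counts were tested over all genes with edgeR 4.0.16 (R 4.3.3), by quasi-likelihood F-tests after TMM scaling and a filter on low counts (filterByExpr, minimum count 10), with Benjamini-Hochberg adjustment and a threshold of 0.05. HR against Control and female against male used linetype and sex; the lines test used line and sex. RPKM served for levels between genes, without a test. Line means are over 2 libraries. A male and a female library of a line are different mice of one line: their deviations from the group means correlated at 0.321 to 0.708 over all genes, so line numbers pair them. P-values of the lines test measure the spread between these 2 pools. Alternatives used DESeq2 1.42.0 and limma 3.58.1, and scripts were tested on simulated data. Named genes were the C-type members, the highest 4 and lowest 3 of each cluster by RPKM, those called in any test, those with the smallest *p* in each test, and, from the lists, those called in HR against Control or with the 3 smallest *p* there. Other list genes called among lines or in line 3 were named after their values were seen. Sequence shared between members, and with other genes, was counted in GENCODE M21 transcripts in 75-nt stretches. Intervals of count error are not given, since the spread between libraries is printed.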

Additional observations from a re-analysis of the deposited data

Results flagged for a closer look

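In 118 groups of 4 lines (59 less the genes without counts, and the cluster sums, in each linetype), the gap of the farthest line to the next was set against Dixon's critical value of 0.829, which chance passes in about 1 in 20 groups. It was passed 12 times, 8 times by HR line 3 and 4 times by Control line 1, always as the highest line. HR line 3 stood apart in CPM at *Pcdhb3* (6.21, others 4.67 to 4.75), *Pcdhb6* (3.72, others 1.21 to 1.53), *Pcdhga5* (11.6, others 2.30 to 3.04), *Pcdhgb4* (11.7, others 4.55 to 5.34), *Pcdhgb5* (12.6, others 3.78 to 4.51), *Pcdhga10* (10.2, others 4.18 to 4.71), *Pcdhgb8* (5.68, others 0.725 to 0.960) and *Pcdhga12* (3.75, others 1.26 to 1.65). Control line 1 stood apart at *Pcdhb3* (6.67, others 3.98 to 4.27), *Pcdhb4* (8.81, others 3.96 to 4.403), *Pcdhb13* (8.36, others 5.05 to 5.33) and *Pcdhb15* (3.16, others 1.87 to 2.00). *Pcdhb3* was thus high in 1 line of each linetype. *Pcdhb9*, the lowest member of line 3 relative to the other HR lines, did not pass, since line 6 lay between.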

How the results depend on the processing

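HR against Control, female against male and the interaction each gave 0 members under every alternative tried, including, with line as a replicate block, the sexes and the interaction, and for linetype the random block of limma-voom. The lines test gave 22 to 34 members under other scaling, filter or DESeq2, and 11 to 24 when a line was left out, with 11 without line 3 and 16 without line 1. Of all genes, 42.5% were called with DESeq2, 19.3% without line 3 and 24.4% without line 1. For the other alternatives of this test the share of all genes was not counted. Of 26 members called, *Pcdhb9*, *Pcdhga5*, *Pcdhgb8*, *Pcdhgb5* and *Pcdhgb4* had adjusted *p* of 0.152, 0.326, 0.845, 0.369 and 0.463 without line 3. Line 3 against the other HR lines gave 12 calls without line 7 or 8, against 19, and line 1 gave 4 to 11, with 11 without line 2 and 4 without line 4, against 7. Without line 3, line 7 gave 1 call, against 3, and line 8 gave 0 in edgeR, against 5, with 2 members at an unadjusted *p* under 0.05. These line contrasts were added after seeing the data. Among their alternatives, the share of all genes was counted only for the calls of lines 7 and 8 without line 3. The other changes in number have no background. Of 165 alternative log2 fold changes of 11 members, 12 turned sign. With a line left out, *Pcdhb1* ranged from -0.017 (without line 4) to 0.19, *Pcdhac2* from -0.045 (without line 4) to 0.098, *Pcdhga5* from -0.10 (without line 3) to 1.03 and *Pcdhgc3* from -0.23 (without line 3) to 0.11. With line sums, *Pcdhac2* gave -0.00045 and *Pcdhgc3* 0.0073, and *Pcdhgc3* gave 0.0043 with the random replicate block. The causes were not tested. Cluster sums moved by less than 1 SD between lines, and without a line the log2 ratio was -0.04 to 0.10 for alpha, -0.12 to 0.07 for beta and 0.00 to 0.16 for gamma. Reads per library numbered 12 to 260 at *Pcdhgb8*, 11 to 95 at *Pcdhgc4* and 8 to 68 at *Pcdhgc5*.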
